A study of Zea mays with 10 samples.

Results

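The alpha-tubulin genes were followed through 115 of the 5400 EST clones on a maize cDNA array. They were the clones whose platform annotation named tua4 (57 clones), TUA1 (30), tua3 (16), tua5 (8) or tua6 (4), directly or through a RefSeq synonym. The family was singled out after its clones had been seen to be mostly positive on the H99 arrays, so its values there, and every quantity that contains them, are a description: calls counted on them are set beside the share over all clones and support nothing. The B73 arrays form the comparison on which this choice did not rest, although their results were known too.

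The samples were immature ears of the inbred maize lines B73 and H99 and of their cross, the B73xH99 F1 hybrid, known for heterosis, the gain in vigour of a hybrid over its parents. Each genotype was a bulk of 10 field-grown plants at stage V15, with silks and ear tips removed. Every one of the 10 arrays paired the hybrid with 1 inbred, 5 with B73 and 5 with H99, and in both sets arrays 1 to 3 carried the hybrid in Cy3 (forward) and arrays 4 and 5 in Cy5 (reversed). Each array of a set was a new labelling drawn from the same RNA pools. SDs and p-values therefore measure labelling and hybridisation, and not plants.

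All values are deposited log2 ratios of the 2 channels, averaged over 5 arrays and written L1 against B73 and L2 against H99. The design text defines ratios of the hybrid to the inbred, under which a positive value means more transcript in the hybrid. Whether the deposited ratios run that way, and whether the reversed arrays had been turned to the common direction, is not stated. Signs are therefore given as deposited, without naming the higher genotype. Ratios hold no level of a transcript, so neither the tissue nor the rank of the 5 genes by abundance could be checked. In a bulk tissue, fewer cells of a type and less RNA per cell cannot be told apart.

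Alpha-tubulin and beta-tubulin form the dimers that assemble into microtubules, the hollow filaments of the mitotic spindle, of the phragmoplast that builds the new wall between daughter plant cells, and of the cortical arrays that guide the laying down of cellulose. In an immature ear, with its many dividing and elongating cells, tubulin transcripts are typically plentiful. Plant alpha-tubulins are encoded by small families of closely similar coding sequences. A cDNA clone can therefore also bind transcripts of a sister gene, and the values of single members are uncertain for that reason. In the RefSeq table the gene next to TUA1 is another alpha-tubulin, TUA2, which shares an older gene-model name with it; 0 of the 811 named clones carried the name TUA2.

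All 115 clones had a value on all 10 arrays and all passed the filter on missing values, while 43 of the 5400 clones of the array did not. In 105 of the 115 all 3 spots were present on every array. Array medians over all spots lay between -0.001 and 0, and between 0.253% and 2.31% of spots lacked a value. The SD of the log2 ratios over spots was 0.218 to 0.362 on the B73 arrays and 0.172 to 0.228 on the H99 arrays. The fit behind the calls shared its estimate of the spread between both inbreds, so each family clone had the same SE for L1 and L2. The wider B73 arrays thus entered the p-values of L2, and the narrower H99 arrays those of L1. An SD over the arrays of an inbred is not the spread used for its p-value. Counts of calls against B73 and against H99 are to be read with these limits.

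On the H99 arrays the 2 genes with the most clones, tua4 and TUA1, behaved alike. The mean over the 57 clones of tua4 was 0.16, 0.12, 0.050, 0.17 and 0.12 on H99 arrays 1 to 5. That of the 30 clones of TUA1 was 0.17, 0.14, 0.036, 0.19 and 0.11. Both genes thus stood above 0 on all 5 arrays and in both dye orientations, lowest on array 3 and highest on array 4. Their L2 was 0.12 ± 0.046 for tua4 and 0.13 ± 0.059 for TUA1 (SD, n = 5 arrays each). Clone by clone, 53 of 57 and 29 of 30 had a positive L2.

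The third gene, tua3, was lower on each of the forward arrays than on the reversed ones. Its mean was 0.037, 0.073 and -0.00075 on H99 arrays 1 to 3 and 0.17 and 0.081 on arrays 4 and 5, which gave an L2 of 0.072 ± 0.064 (SD, n = 5). Of its 16 clones, 13 had a positive L2.

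The small sets of tua5 and tua6 clones split by dye orientation. The 8 clones of tua5 had means of -0.021, 0.0092 and -0.12 on the forward H99 arrays and of 0.12 and 0.11 on the reversed ones. The 4 clones of tua6 had means of -0.16, -0.19 and -0.19 on the forward arrays and of 0.090 and 0.089 on the reversed ones. The 2 orientations did not overlap in either gene, and in tua6 they lay on opposite sides of 0. Their L2 of 0.021 ± 0.10 for tua5 and -0.073 ± 0.15 for tua6 (SD, n = 5 each) is therefore an average of unlike arrays. Leaving out 1 H99 array moved the L2 of tua5 from -0.0049 (without array 4) and -0.0021 (without array 5) to 0.056 (without array 3), and that of tua6 from -0.11 (without array 4 or 5) to -0.043 (without array 3).

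On the forward H99 arrays the 5 gene means spread over 0.29, from -0.18 for tua6 to 0.11 for TUA1. On the reversed arrays they spread over 0.059, from 0.089 for tua6 to 0.15 for TUA1. The order was the same in both, with TUA1 first, then tua4, tua3, tua5 and tua6. Taken array by array, TUA1 and tua4 differed by 0.0050 ± 0.016 (SD of the difference, n = 5), less than its spread. For the other neighbours in the order the differences were 0.050 ± 0.047 between tua4 and tua3, 0.051 ± 0.054 between tua3 and tua5 and 0.094 ± 0.075 between tua5 and tua6. Of these, the difference of tua3 and tua5 was within its SD. Against tua6, tua4 was higher on all 5 arrays, by 0.20 ± 0.13.

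**Figure D1:**
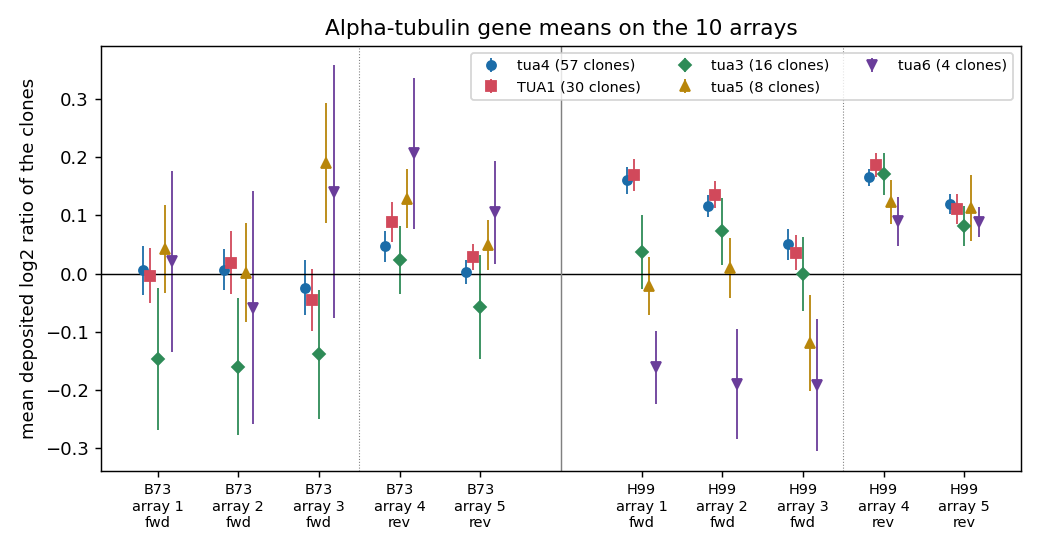
The vertical axis is the mean deposited log2 ratio over the clones of each gene and the horizontal axis the 10 arrays, B73 at the left and H99 at the right, with forward and reversed arrays divided by dotted lines; bars are the SD over clones divided by the square root of their number, and clones of one gene are not replicates. On the H99 arrays tua4 and TUA1 lie above 0 throughout, while tua6 lies between -0.19 and -0.16 on the forward arrays and near 0.09 on the reversed ones.

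Over the whole family, 86, 90, 66, 105 and 92 of the 115 clones were positive on H99 arrays 1 to 5, or 57.4% on array 3 and 74.8% to 91.3% on the others. Over all clones of the array the share lay between 49.2% and 50.5%. The median L2 of the family was 0.12, against -0.0021 over all 5357 clones tested, and 100 of the 115 clones (87%) were positive, against 49.1%. A positive value on all 5 H99 arrays was seen in 38 of the 115 clones (33%), namely in 24 of tua4, 10 of TUA1 and 4 of tua3, and in 0 of tua5 and tua6, beside 9.02% of all clones. No clone of the family was negative on all 5, as 7.57% of all clones were.

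These shares depend on how the reversed arrays entered the deposit. When the sign of H99 arrays 4 and 5 was turned, 64 of the 115 clones had a positive L2, and the gene means became 0.0083 for tua4, 0.0086 for TUA1, -0.029 for tua3, -0.074 for tua5 and -0.14 for tua6. On the forward arrays alone, which that question does not touch, the mean was 0.11 for both tua4 and TUA1. There 48 of 57 and 24 of 30 clones were positive. All forward arrays carried the hybrid in Cy3 and H99 in Cy5, so genotype and dye cannot be told apart on them.

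An adjusted p below 0.05, the threshold for a call in limma, was reached for L2 by 1 clone of the 115 (0.870%), against 1.23% of all clones tested, 0.709% positive and 0.523% negative. Since the family was chosen on L2, nothing is read from this count. Over the settings tried it went from 0 (without H99 array 1, for example, beside 0.261% of all clones) to 25 (with quantile normalization, beside 8.03%). The clone was the 20th of TUA1 in array order, picked out here after its values were seen, with 0.28, 0.27, 0.24, 0.25 and 0.12 on the H99 arrays (L2 of 0.23 ± 0.066, SD). It lay between -0.16 and -0.060 on the B73 arrays, so that its 2 sets of arrays did not overlap. None of the 5 gene means was called for L2, as 0.987% of the 4763 gene means and unnamed clones were.

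**Figure D2:**
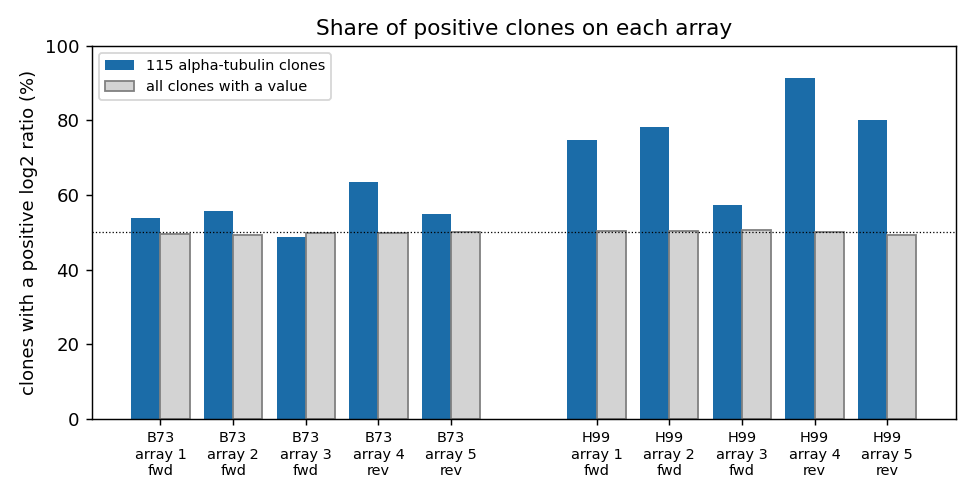
Bars give the share of clones with a positive log2 ratio on each array, in percent, for the 115 alpha-tubulin clones and for all clones with a value. The alpha-tubulin share lies at 48.7% to 63.5% on the B73 arrays and at 57.4% to 91.3% on the H99 arrays, while that of all clones stays at 49.2% to 50.5%.

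The B73 arrays asked whether alpha-tubulin transcripts differ between the hybrid and this parent. No gene mean passed the test, while 40.4% of the 4763 gene means and unnamed clones, and 30.5% of the 213 named gene means alone, did. Most of the 4763 were single unnamed clones, and 70 of the named genes had at least 3 clones. The family means averaged 4 to 57 clones, called in both directions. These shares are therefore not a like-for-like background, here or for the gene means of L2 and a. The unadjusted p was above 0.05 for all 5 genes as well. In tua4 the mean over clones was 0.0055, 0.0063, -0.024, 0.047 and 0.0030 on B73 arrays 1 to 5. In TUA1 it was -0.0035, 0.018, -0.046, 0.089 and 0.029. Both genes lay close to 0 on all arrays, with L1 of 0.0075 ± 0.025 for tua4 and of 0.017 ± 0.049 for TUA1 (SD, n = 5; limma adjusted p = 0.916 and 0.802).

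In tua3 the 3 forward B73 arrays stood at -0.15, -0.16 and -0.14 and the reversed ones at 0.023 and -0.058. Its L1 of -0.096 ± 0.078 (SD, n = 5; limma adjusted p = 0.155) did not pass. The median over its 16 clones was 0.010, and the mean without its 2 lowest clones, a selection made after the values were seen, was -0.0024. Leaving out the lowest clones can only raise a mean, so this value does not show what the negative mean rested on. Of the 16 clones, 6 were called positive and 6 negative for L1. The 2 lowest are described below.

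Both tua5 and tua6 were mostly positive against B73. The mean of tua5 was 0.042, 0.0011, 0.19, 0.13 and 0.049 on B73 arrays 1 to 5, and that of tua6 was 0.021, -0.059, 0.14, 0.21 and 0.11. Their L1 of 0.082 ± 0.076 and 0.083 ± 0.10 (SD, n = 5; limma adjusted p = 0.247 and 0.298) did not pass. Both passed in 1 alternative, in which the median of the neighbouring clones was subtracted and their L1 became 0.15 each.

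In the order of L1, tua6, tua5, TUA1 and tua4 followed one another with differences within their SD over arrays. Only the step from tua4 to tua3, 0.10 ± 0.061 (SD of the difference, n = 5), exceeded it, and tua4 was higher on all 5 arrays. Among the 70 named genes with at least 3 clones, tua6 and tua5 ranked 8th and 9th by L1, TUA1 31st, tua4 34th and tua3 57th. By L2 TUA1 ranked 3rd, tua4 4th, tua3 8th, tua5 23rd and tua6 63rd.

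Single clones were called often for L1 and in both directions. Of the 115 clones, 60 (52.2%) passed, 34 of them positive and 26 negative, while 41.7% of all clones tested passed, 21.0% positive and 20.7% negative. In tua4 18 clones were called positive and 13 negative, in TUA1 6 and 5, in tua3 6 and 6, in tua5 2 and 1, and in tua6 2 and 1. Each of the 5 genes thus held clones called in opposite directions. On all 5 B73 arrays, 35 of the 115 clones (30.4%) were positive and 17 (14.8%) negative, beside 20.4% and 17.3% of all clones. The family count changed by over 1.5 times with several settings. It was 36, 39 and 38 without B73 arrays 1, 2 and 3 (31.3%, 33.9% and 33.0%), while the share over all clones also went down, to 27.4%, 29.1% and 26.1%. With all arrays scaled to one spread it was 29 (25.2%, beside 21.4% of all clones). The same scaling gave 21 calls of the family for L2 (18.3%, beside 5.77% of all clones). With the reversed B73 arrays turned the family count for L1 was 0, as it was over all clones.

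The 3 highest called clones with one sign on every B73 array belonged to tua4 and TUA1. Clone 32 of tua4 stood at 0.57, 0.38, 0.67, 0.20 and 0.24 on the B73 arrays (L1 of 0.41 ± 0.20, SD; limma adjusted p = 0.000447). Clone 42 of tua4 had 0.24, 0.29, 0.51, 0.62 and 0.34 (0.40 ± 0.16; limma adjusted p = 0.00497). Clone 4 of TUA1 had 0.48, 0.43, 0.59, 0.20 and 0.17 (0.37 ± 0.18; limma adjusted p = 0.000882). Clone 32 of tua4 and clone 4 of TUA1 stood higher on the forward arrays than on the reversed ones. The call of clone 42 of tua4 was lost with the arrays scaled to one spread (L1 of 0.35).

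The lowest clones were those of tua3. Clone 16 of this gene stood at -1.28, -1.26, -1.01, -0.44 and -0.71 on the B73 arrays (L1 of -0.94 ± 0.36, SD; limma adjusted p = 3e-05). Clone 11 had -0.85, -0.50, -0.0010, -0.38 and -1.10 (-0.57 ± 0.42; limma adjusted p = 0.00131). Both were negative on every B73 array, as was clone 11 of tua4, with -1.03, -0.77, -0.081, -0.19 and -0.47 (-0.51 ± 0.39; limma adjusted p = 0.00408). These 3 clones also had the lowest L2 of the family, at -0.27, -0.24 and -0.34. On the H99 arrays, clone 16 of tua3 had -0.69, -0.40, -0.42, 0.27 and -0.096, and clone 11 of tua4 had -0.59, -0.48, -0.70, 0.050 and 0.028. Both were thus lower on the forward than on the reversed arrays.

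At the other end of L2, the highest clone of tua4, and of the family, was clone 8, with 0.30, 0.19, 0.38, 0.21 and 0.25 on the H99 arrays, and the highest of TUA1 was clone 25, with 0.31, 0.42, -0.082, 0.32 and 0.30. The highest of tua3, clone 8, had 0.13, 0.38, 0.38, 0.23 and 0.095. On the B73 arrays these 3 clones had L1 of 0.0049, 0.12 and -0.087, none called. The lowest clone of TUA1 by L2, its clone 13, still averaged -0.023.

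In tua6 the 4 clones fell apart on the B73 arrays. Clone 1 had 0.33, 0.24, 0.39, 0.51 and 0.28 and clone 3 had 0.22, 0.24, 0.49, 0.33 and 0.24, with L1 of 0.35 ± 0.11 and 0.30 ± 0.11 (SD; limma adjusted p = 0.00289 and 0.00375). Clone 2 was called in the other direction, at -0.34, -0.61, -0.48, 0.043 and -0.087 (L1 of -0.30 ± 0.27; limma adjusted p = 0.00963), and clone 4 lay near 0, with L1 of -0.026. The call of clone 2 was lost without B73 array 2 (L1 of -0.22) and with the arrays scaled to one spread (-0.20). On the forward H99 arrays clones 1 and 3 ranged from -0.46 to -0.13, and on the reversed ones from 0.082 to 0.17. Clones 2 and 4 averaged -0.12 and 0.056 over the H99 arrays.

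In tua5 clone 6 was highest by L1, at 0.31 ± 0.19 (SD, n = 5; limma adjusted p = 0.0162), and positive on all B73 arrays. Its lowest was clone 1, at -0.17 ± 0.13 (SD, n = 5; limma adjusted p = 0.0306). Neither call was stable: that of clone 1 was lost without any 1 of B73 arrays 1 to 4 and that of clone 6 without array 1 or 3, and both with scaled or quantile-normalized arrays. By L2 the extremes were clone 8 at 0.16 ± 0.16 and clone 2 at -0.069 ± 0.21 (SD, n = 5 each). In TUA1 clone 21 had the lowest L1, at -0.32 ± 0.21 (SD, n = 5; limma adjusted p = 0.00224), and in tua3 clone 4 the highest, at 0.26 ± 0.11 (SD, n = 5; limma adjusted p = 0.00478).

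**Figure D3:**
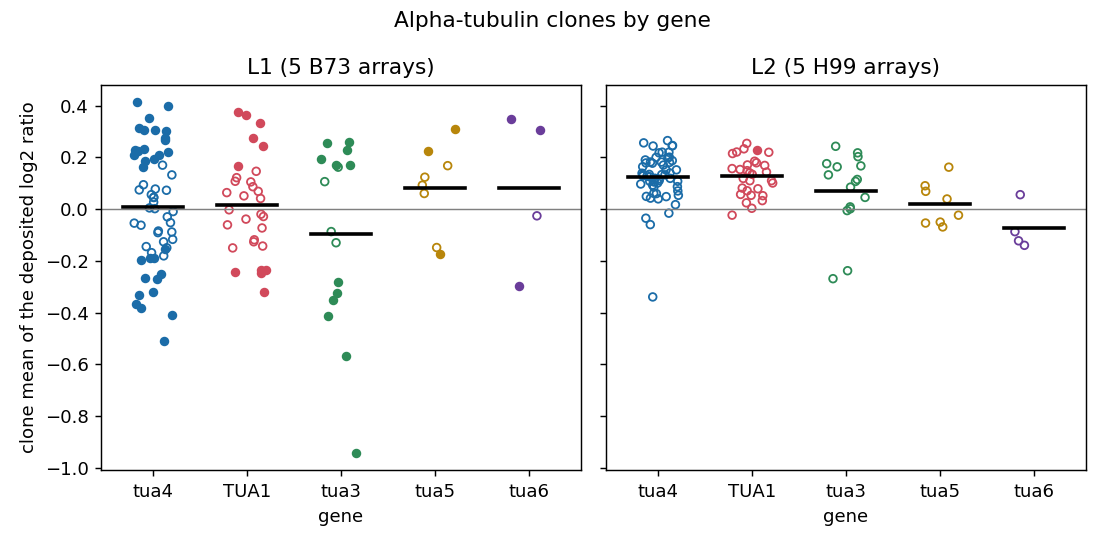
Each point is a clone, placed by its mean deposited log2 ratio over the 5 B73 arrays (left, L1) or the 5 H99 arrays (right, L2); filled points had a limma adjusted p below 0.05 and black bars are gene means. Clones of one gene spread from -0.51 to 0.41 in tua4 for L1 and lie mostly between 0 and 0.27 for L2.

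Spots of a clone, which are successive rows of the table, agreed closely while clones of a gene did not. In tua4 the SD between the 3 spots of a clone was 0.031 for L1 and 0.028 for L2, and the SD between its clones was 0.23 and 0.095. In tua3 the SD between clones was 0.35 for L1, in tua6 0.30, in TUA1 0.19 and in tua5 0.17, beside 0.23 over all clones tested. For L2 it was 0.074 in TUA1, 0.083 in tua5, 0.089 in tua6 and 0.15 in tua3, beside 0.11. The clone differences recurred between B73 arrays. Across the 115 clones, which share arrays and normalization, forward B73 arrays correlated at 0.73 to 0.84 and forward with reversed ones at 0.41 to 0.66. Among the H99 arrays, r was 0.40 to 0.66 for forward pairs, 0.47 for the 2 reversed arrays and -0.24 to 0.35 across the orientations. This is not particular to the family. Over all 5400 clones r was 0.76 to 0.81 for forward B73 pairs and 0.37 to 0.54 for forward with reversed ones. For H99 it was 0.33 to 0.62, 0.57 and -0.17 to 0.22.

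The value of a clone moved with its place in the table. The row order repeated in 8 blocks of 675 clones: over all clones, L1 correlated at 0.30 between neighbouring clones, at 0.32 between clones 675 places apart and at -0.039 between clones 337 places apart. The 115 clones were spread over all blocks, with 10 to 20 in each. For each clone the median of the others at its position, 1 place before and 1 after, was taken over the 8 blocks (up to 23 clones). Across the family this median correlated with L1 at r = 0.54 and with L2 at r = 0.49 (n = 115 clones on shared arrays). In tua4 r was 0.63 and 0.59 (n = 57). Over all clones with a value it was 0.46 and 0.335, so this is not particular to the family.

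Subtracting that median, an alternative added after the row order had been seen, narrowed L1 between clones. The SD went from 0.23 to 0.18 in tua4, from 0.19 to 0.16 in TUA1 and from 0.35 to 0.32 in tua3. In the 4 clones of tua6 it went from 0.30 to 0.043, and all 4 then had positive values. It remained at 0.17 in tua5, and over all clones with a value it went from 0.23 to 0.20. Of the 115 clones 37 (32.2%) were then called for L1, beside 32.7% of all clones, and 28 of them were among the 60 called before. The L2 means of tua4 and TUA1 moved little, to 0.12 and 0.11, with 53 and 29 clones positive as before. That of tua6 went from -0.073 to -0.017. Clones 16 and 11 of tua3, the lowest of the family by L1, stood at positions whose medians were -0.025 and 0.051. Under this setting and under subtraction of the neighbours' median, these clones, clone 32 of tua4 and clone 4 of TUA1 were still called. Clone 42 of tua4 (L1 of 0.18 and 0.012) and clone 11 of tua4 (-0.12 and -0.24) were not, nor was clone 6 of tua5 (0.083 and 0.13) or clone 3 of tua6 (0.10 and -0.0016). Clone 1 of tua6 lost its call with the block position median (0.18). With the neighbours' median clone 1 of tua5 (-0.066) and clone 21 of TUA1 (-0.093) lost theirs. Clone 2 of tua6 turned from -0.30 to 0.085 and 0.025.

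**Figure D4:**
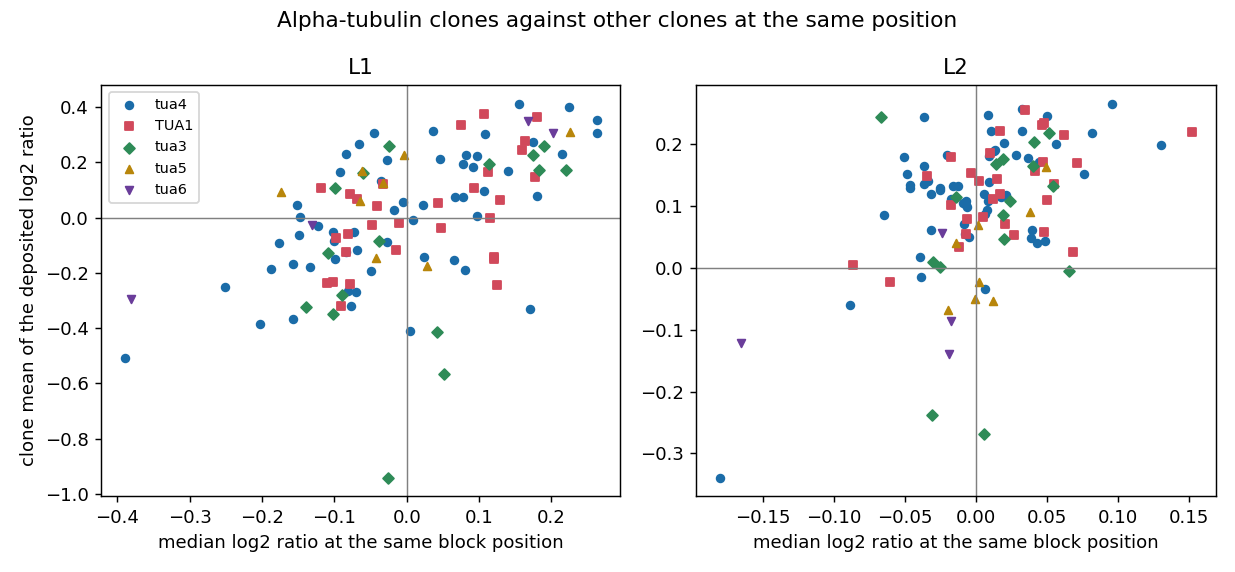
Each point is an alpha-tubulin clone, with its mean deposited log2 ratio on the vertical axis and the median log2 ratio of other clones at the same block position on the horizontal axis, for L1 (left) and L2 (right). Clone values rise with the position median (r = 0.54 and 0.49 over 115 clones), and for L2 most points lie above 0 on either side of a position median of 0.

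The dominance parameter d of the design text, (L1 + L2)/2, measures how far the hybrid lies from the middle of its parents. It contains L2 and is described only. The gene means of d were 0.065 ± 0.035 for tua4, 0.073 ± 0.036 for TUA1, -0.012 ± 0.038 for tua3, 0.052 ± 0.039 for tua5 and 0.0050 ± 0.044 for tua6 (SE from limma). With the reversed H99 arrays turned, those of tua4 and TUA1 became 0.0079 and 0.013, and with both sets turned -0.0021 and -0.011. Clones were called in 48 of 115 cases (41.7%), 37 positive and 11 negative, beside 25.2% of all clones, 12.5% positive and 12.7% negative. By gene, 21 of tua4 were positive and 6 negative, 10 and 1 of TUA1, 4 and 3 of tua3, 2 and 0 of tua5, and 0 and 1 of tua6. The count was 30 without B73 array 1 or without H99 array 1, 16 with the reversed H99 arrays turned and 0 with those of B73 turned. Over all clones the share in these settings was 13.5%, 14.7%, 12.4% and 0.0373%.

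The additive parameter a, (L2 - L1)/2, compares the inbreds through the hybrid, and under the design text a positive value means more transcript in B73 than in H99. The gene means of a were 0.058 ± 0.035 for tua4, 0.055 ± 0.036 for TUA1 and 0.084 ± 0.038 for tua3, and -0.031 ± 0.039 for tua5 and -0.078 ± 0.044 for tua6 (SE). The first 3 genes thus had the opposite sign of the other 2. With the reversed H99 arrays turned, tua4 and TUA1 had 0.00040 and -0.0044, and with those of B73 turned tua5 had 0.0049. No gene mean was called, beside 19.4% of the gene means and unnamed clones. Of the clones 31 (27.0%) were called, 26 positive and 5 negative, beside 20.3% of all clones, 9.15% positive and 11.2% negative. The positive calls were 15 of tua4, 5 of TUA1 and 6 of tua3, and the negative ones 2 of tua4, 1 of TUA1 and 2 of tua6. The count was 18 and 20 without B73 arrays 1 and 2, 19 without H99 array 2 and 0 with the reversed B73 arrays turned. Over all clones the share in these settings was 11.1%, 12.9%, 11.8% and 0.0373%. All 5 H99 arrays lay above all 5 B73 arrays in 14 of the 115 clones (12.2%), beside 5.25% of all clones, and below them in 3, of which 2 were of tua6, beside 6.49%.

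Over the 10 arrays the gene means fell into 2 sets. The means of tua4, TUA1 and tua3 correlated with each other at r = 0.89 to 0.97 (Spearman's rho 0.84 to 0.94), and those of tua5 and tua6 at r = 0.86 (rho 0.92). Between the sets r lay from -0.32 to 0.043. The arrays fall into a B73 and an H99 set. With each gene centred within each inbred, the 2 gene sets overlapped. Then r was 0.67 to 0.96 among tua4, TUA1 and tua3, 0.86 for tua5 with tua6 and 0.32 to 0.75 between the gene sets. In this form tua3 correlated at 0.75 with tua6 and at 0.67 with tua4. All genes share the arrays, their normalization and the RNA pools, so these values are descriptions. Among the 69 other genes with at least 3 clones, those outside the family nearest to tua4 over the 10 arrays were gpc2 (r = 0.89) and GPC1 (r = 0.84), cytosolic glyceraldehyde-3-phosphate dehydrogenases, sam2 (r = 0.84), an S-adenosylmethionine synthetase, Ann7 (r = 0.84), an annexin, and SRP2B (r = 0.82).

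Other cytoskeleton genes were represented by 7 clones of 6 genes. Both beta-tubulins, the partners of alpha-tubulin in the dimer, were negative on all 5 H99 arrays. The single clone of tub3 had -0.54, -0.24, -0.24, -0.11 and -0.14 there, and that of tub6 had -0.38, -0.19, -0.23, -0.16 and -0.023. Their L2 was -0.26 ± 0.17 and -0.20 ± 0.13 (SD, n = 5; limma adjusted p = 0.111 and 0.138), and neither passed. Against B73, tub3 was called with L1 of -0.27 ± 0.21 and kin4 with -0.19 ± 0.10 (SD, n = 5; limma adjusted p = 0.012 and 0.0315), while tub6 had -0.070 ± 0.13.

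The actin-binding proteins of the same list were uneven. ADF3, an actin-depolymerizing factor, had L2 of 0.16 ± 0.18, and the profilins PRO4 and prf5, which bind actin monomers, had -0.034 ± 0.078 and 0.023 ± 0.12 (SD, n = 5 each). None of these passed for L1 or L2 as gene means. Of the 7 clones in the list, 1 was called positive and 2 negative for L1, beside 21.0% and 20.7% of all clones tested. For L2 0 were called, beside 1.23%, and the median L2 of the list was -0.046.

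Markers of other sources of RNA were set beside the positive L2 of the family. Genes of dividing cells were 55 tested clones of 6 genes (histones, cdc2, pcna2 and MCM6). Of these clones his1a alone held 35, his1 11 and his2b5 4, so the list rests mostly on histone clones. Its median L2 was -0.019 with 19 positive, and its median L1 was 0.021. For L1, 10 of its clones were called positive and 13 negative. Ear and meristem regulators, 24 clones of 6 genes such as kn1 and ZAG1, had a median L2 of -0.036 with 10 positive and a median L1 of 0.074 with 9 called positive and 4 negative. The 7 clones of the green-leaf genes Ppc1C and Lhcb5-2 and the 5 of the kernel gene sh1 had median L2 of -0.083 and -0.047. Beside the L1 calls of these lists stand 21.0% of all clones tested called positive and 20.7% negative. No clone of the 4 lists was called for L2, beside 1.23% of all clones tested. Whether a difference in cell makeup bears on the alpha-tubulin values was not tested.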

How the data were processed

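The authors deposited, for each of 16200 spots on 10 two-channel cDNA arrays, a log2 ratio, per the series design text. How the spots were scanned, corrected for background, normalized and filtered is not given in the labels or other sources used here. Array medians within 0.001 of 0 show that the deposited values had been centred. Per the labels' protocols, poly(A) RNA came from at least 3 pooled extractions per genotype, and 1 microgram was used per labelling. Of the columns in the table, 0 belonged to no sample.

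Successive groups of 3 spots, each with 1 accession, were averaged to 5400 clones. The platform annotation named 811 of them for 213 genes, of which 212 were found in the RefSeq table of the B73 reference assembly, used for names only. Sequences and channel intensities were not used here. Clones with at least 3 values per inbred and 1 per dye orientation, 5357 in all, entered a fit of 1 mean for each inbred in limma 3.58.1, run in R 4.3.3. Both inbreds shared 1 variance per clone, also in the alternative with each clone's own variance. P-values were adjusted by Benjamini and Hochberg over the whole table and called below 0.05. Gene means were fitted in a table with the clones of each gene averaged and unnamed clones kept. The fit was tested on simulated data with independent noise for each clone and array and the same spread for both inbreds. That test does not cover effects of dye orientation, position in the table or unequal spread.

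The members, lists and tests were chosen with earlier results of these data known. Clones named in the text are those with the highest and lowest L1 and L2 of each gene, all of tua6, and up to 3 per sign with the largest called L1 of one sign on every B73 array. Genes most like tua4 are the 5 with the highest Pearson correlation of gene means. Alternatives left out arrays, turned reversed arrays, added a dye term, rescaled, subtracted position medians, changed the variance, spot averaging or filter, or used the replicate number as a block.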

Additional observations from a re-analysis of the deposited data

Results flagged for a closer look

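Of the 50 sets of 5 arrays examined, those of the 5 gene means and of 20 named clones, 2 held an array that stood far from the other 4; about 1 in 20 would do so by chance. In clone 2 of tua5, H99 array 3 lay at -0.45 while the others lay between -0.011 and 0.067. In clone 25 of TUA1, H99 array 3 lay at -0.082 while the others lay between 0.30 and 0.42.

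For 6 named clones the additive parameter stood past the threshold used for calls. It was 0.34 for clone 16 of tua3, 0.16 for clone 8 of tua3, 0.17 for clone 21 of TUA1, -0.24 and -0.20 for clones 1 and 3 of tua6 and -0.15 for clone 32 of tua4. These clones had been named for extreme L1 or L2, or as members of tua6, and a contains the L2 on which the family was chosen, so these values are a description.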

How the results depend on the processing

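Leaving out 1 array at a time gave 36 to 62 calls among the clones in L1 (60 with all arrays), 0 to 6 in L2 (1), 30 to 52 in d (48) and 18 to 42 in a (31), and 96 to 104 clones with a positive L2 (100). The share called over all clones then ranged from 26.1% to 46.3% in L1 and from 0.261% to 1.89% in L2. In d it ranged from 13.5% to 32.4% and in a from 11.1% to 28.0%. With the reversed B73 arrays turned, 0 clones of the family were called for each of L1, L2, d and a. Over all 5357 clones 0, 13, 2 and 2 were called. With those of both inbreds turned the counts were 0 in the family and over all clones. With those of H99 turned 0 clones of the family were called for L2 and 16 for d. Either way of turning the H99 arrays left 64 clones with a positive L2. Scaling the arrays to one spread gave 29 calls for L1, 21 for L2 and 19 for a, quantile normalization 36 for L1 and 25 for L2, and a dye term 8 for L2. Subtracting the neighbours' median gave 10 for L2 and called 2 of the 5 gene means for L1 in place of 0. The block position median gave 37 for L1 and 16 for a. Each clone's own variance gave 29 for d and 13 for a. Clones complete on all arrays, 105 of the family, gave 3 for L2 (2.86%, beside 1.76% of all such clones). Single spots, 345 in place of 115 clones, gave 157 in L1, 0 in L2, 118 in d and 80 in a. The 157 were 45.5% of the family's spots, beside 37.4% of all 16048 spots, where clones had 52.2% and 41.7%. The 118 were 34.2%, beside 20.3% of all spots, and the 80 were 23.2%, beside 16.5%. Of all spots 0.785% were called in L2. The share over all clones moved too: with scaled arrays 21.4% were called for L1, 5.77% for L2 and 8.79% for a, beside 25.2%, 18.3% and 16.5% of the family. With quantile normalization it was 25.0% for L1 and 8.03% for L2, beside 31.3% and 21.7%. For L2 it was 2.91% with the dye term and 3.25% with the neighbours' median, beside 6.96% and 8.70%. For d it was 12.4% with H99 turned and 13.1% with each clone's own variance, beside 13.9% and 25.2%. For a it was 12.8% with the block position median and 8.53% with each clone's own variance, beside 13.9% and 11.3%. The causes were not tested.

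Gene means near 0 changed sign in L1. With the reversed B73 arrays turned, alone or with those of H99, tua4 had -0.012, TUA1 -0.030, tua6 -0.042 and clone 11 of tua3 0.027. Leaving out 1 B73 array gave -0.0023 (without array 4) to 0.015 for tua4 and -0.000481 (without array 4) to 0.033 for TUA1. After the neighbours' median was subtracted tua4 had -0.0086, clone 2 of tua6 0.025 and clone 3 of tua6 -0.0016, and after the block position median TUA1 had -0.0063 and clone 2 of tua6 0.085. The L2 means of tua4 and TUA1 stayed between 0.099 and 0.16 in all alternatives that turned no array. Both inbreds share the replicate numbers 1 to 5, but same-numbered arrays showed no steady pairing. Their deviations correlated at 0.16, 0.065, -0.29, 0.31 and -0.089 for numbers 1 to 5. With the number as a block 45 clones (39.1%) were called for d and 28 (24.3%) for a, beside 24.7% and 15.5% of all clones. The number of arrays limits the precision.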
